A study of Mus musculus with 6 samples.

Results

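The genes described here, measured in PAM212 cells (a mouse line labelled as keratinocytes), encode 9 proteins grouped as keratinocyte paracrine factors acting on melanocytes. They were taken by symbol from the gene table, which held all 9 among its 21936 genes: Edn1, Kitl, Fgf2, Hgf, Pomc, Lif, Bmp4 and Dkk1, which encode secreted or shed proteins, and F2rl1, which encodes a receptor of the keratinocyte itself and is therefore not a paracrine factor in the strict sense. The study compared 3 libraries of PAM212 cells infected with a lentivirus that carries the mouse miR-28-3p gene with 3 control libraries of PAM212 cells. The controls are labelled as not treated and titled NC. The sources used here do not give whether the controls carried an empty vector or whether either group is 1 clone. All cells grew in DMEM with 10% FBS, and libraries were made from polyadenylated RNA. The labels name no culture of origin for the libraries, so the p-values measure only the spread between these libraries, which may be technical. The design line of the series names melanocytes while its title and sample labels name keratinocytes. No melanocyte is part of the labelled cultures, so the data show mRNA on the keratinocyte side of this exchange and not the melanocyte response.

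Melanocytes sit among basal keratinocytes, which supply them with growth factors and take up the pigment granules they make. Endothelin-1 (Edn1), stem cell factor (Kitl), basic fibroblast growth factor (Fgf2), hepatocyte growth factor (Hgf), melanocortins cut from pro-opiomelanocortin (Pomc) and leukemia inhibitory factor (Lif) are known to act on melanocyte growth, survival or pigment production. The receptor PAR-2, encoded by F2rl1, is opened by proteases and promotes uptake of melanosomes by keratinocytes. BMP4 and the Wnt antagonist DKK1 are known to lower pigment production, and in skin DKK1 and HGF come largely from fibroblasts.

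The overexpressed microRNA is shown because its seed, bases 2 to 8, defines the sites searched in the members, and the 2 members with a match are shown beneath it. The mature sequence is from RefSeq (GRCm38.p6, chr16:24827908-24827929, plus strand), where it is named miR-28a-3p, and capitals mark the seed. In the sites, from GENCODE release M21 on the plus strand of GRCm38, capitals mark the match.
mmu-miR-28a-3p: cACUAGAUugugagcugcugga
Hgf site (chr5:16619567-16619595): aaccatgacttATCTAGTatactctctaa
Fgf2 site (chr3:37406811-37406839): cacaaagtttcTCTAGTAagaaaatagtt
The first site, ATCTAGT, pairs with all 7 seed bases and was found in 1 of the 9 members, Hgf. In all, 757 of 11656 tested genes with an annotated 3′ UTR (6.49%) hold it. The second, TCTAGTA, pairs with bases 2 to 7 and has an A opposite base 1. It was found in Hgf, where it overlaps the first, and in Fgf2, and 6.50% of tested genes hold it. Neither 7-mer was found in the longest annotated 3′ UTR of Edn1, Kitl, F2rl1, Lif, Pomc, Bmp4 or Dkk1. The Fgf2 match lies in the 3′ UTR of 5311 bases. Matches are a description of the letters and not of binding.

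Counted reads per library numbered from 14309898 to 16383374. Several properties of the libraries differed between the groups without overlap. Ribosomal protein genes took 8.99% to 9.15% of counts in the controls and 4.22% to 4.33% with miR-28-3p, and the length of a read's gene averaged 5091 to 5119 bases and 6021 to 6050 bases. The labels name no batch, so overexpression and any batch running with it cannot be told apart. While 42.1% of all tested genes were called higher and 43.9% lower, 4 of the 8 tested keratinocyte markers were called higher and 4 lower. Epcam, which encodes an epithelial adhesion protein and was the most abundant of them, fell from 391 ± 3.98 to 139 ± 4.77 FPKM (counts scaled by gene length and by the reads counted in a library; SD, n = 3). Perp, a gene of desmosomal adhesion, stood at 117 ± 2.51 and 75.4 ± 2.08 FPKM, called lower, but was not called once a trend with gene length was removed. Sfn, which encodes an epithelial 14-3-3 protein, rose from 21.2 ± 1.07 to 52.7 ± 2.18 FPKM, and Dsp, which encodes desmoplakin, from 15.5 ± 0.783 to 21.3 ± 0.573 FPKM. Krt14, which encodes a basal keratin, stood at 17.9 ± 1.48 FPKM in the controls and 21.5 ± 1.74 FPKM with miR-28-3p, called higher but not with upper quartile scaling, and Cdh1, which encodes E-cadherin, at 86.2 ± 1.2 and 113 ± 2.37 FPKM, called higher. Krt5, the usual partner of Krt14, was at 0 counts in all 6 libraries, as was Dsc3, and Trp63, the basal lineage factor, had 53 counts in the controls and 5 with miR-28-3p. The 10 keratinocyte markers summed to 1651 to 1674 CPM (counts scaled to a common library size with edgeR's TMM factors) in the controls and 1348 to 1359 CPM with miR-28-3p. The 8 fibroblast markers summed to 44.6 to 53.6 CPM and 16.8 to 17.5 CPM, most of it from Pdgfra. The collagen gene Col1a1 had 125 and 9 counts, while Col1a2 (0 and 3 counts), Col3a1 (1 and 0 counts) and Lum (0 in all) were at or near 0. The 8 leukocyte markers summed to 17.3 to 21.02 CPM and 4.23 to 6.01 CPM, nearly all from Cd68, and the defining gene Ptprc had 0 and 5 counts. The 12 melanocyte markers summed to 8.11 to 9.91 CPM and 7.52 to 8.94 CPM. Both tested melanocyte markers were called lower, as were 43.9% of all tested genes. Mitf, which encodes the melanocyte lineage factor, went from 329 counts to 219 (log2 fold change -0.52 ± 0.17, edgeR adjusted p = 0.00323). Pmel, a melanosome gene, went from 87 to 38 (-1.13 ± 0.35, edgeR adjusted p = 0.00285), and was not called without the length trend (0.071). Pmel, Trp63 and Col1a1 passed the filter on low counts through the controls only. Tyr, which encodes the first enzyme of melanin synthesis, was at 0 in all 6 libraries, while Tyrp1 had 0 counts in the controls and 40 with miR-28-3p and Dct 0 and 31. With the control group set to 3 counts in total, the pigment enzyme genes Tyrp1 and Dct were at least 13.9-fold and 10.8-fold higher. Their low levels fell under the filter on low counts. The part of other cell types in the results below was not tested. In bulk RNA, fewer cells of a type and less RNA per cell cannot be told apart.

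With miR-28-3p, 4 members rose and 1 fell, and the remaining 4 were at or near 0 counts in both groups. F2rl1 rose 3.03-fold, Kitl 1.87-fold and Lif 1.75-fold. Edn1 rose 4.87-fold from a very low level, and Fgf2 fell 1.62-fold at a low level. Hgf, Pomc and Dkk1 had 0 counts in every library and Bmp4 had 1 count in all. These 5 of 9 members passed the filter on low counts and were tested with edgeR's quasi-likelihood test at an adjusted p (Benjamini-Hochberg over 11809 genes) under 0.05. Across all tested genes 86.0% passed that threshold, 42.1% higher and 43.9% lower, so that a call alone does not set a gene apart here. With upper quartile scaling the balance was 33.5% higher and 53.2% lower (3961 and 6288 genes). For the same 4 members all 3 miR-28-3p libraries lay above all controls, as for 42.2% of tested genes, and for Fgf2 all lay below, as for 43.8%. The median log2 fold change of the 5 tested members was 0.90 and that of all tested genes -0.03. A change of at least 2-fold was called for 2 of the 5, Edn1 and F2rl1, and for 35.8% of all tested genes. Edn1 reached the filter's count level in the miR-28-3p libraries only. Passing through 1 group favours a difference, and of 944 such genes 129 were called higher and 732 lower. Among members that reached that level in all 6 libraries, 3 were higher and 1 lower. F2rl1 alone of them changed at least 2-fold, and their median log2 fold change was 0.85. Of the 10798 genes that did so, 44.8% were higher, 41.2% lower and 31.5% called with at least 2-fold.

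**Figure D1:**
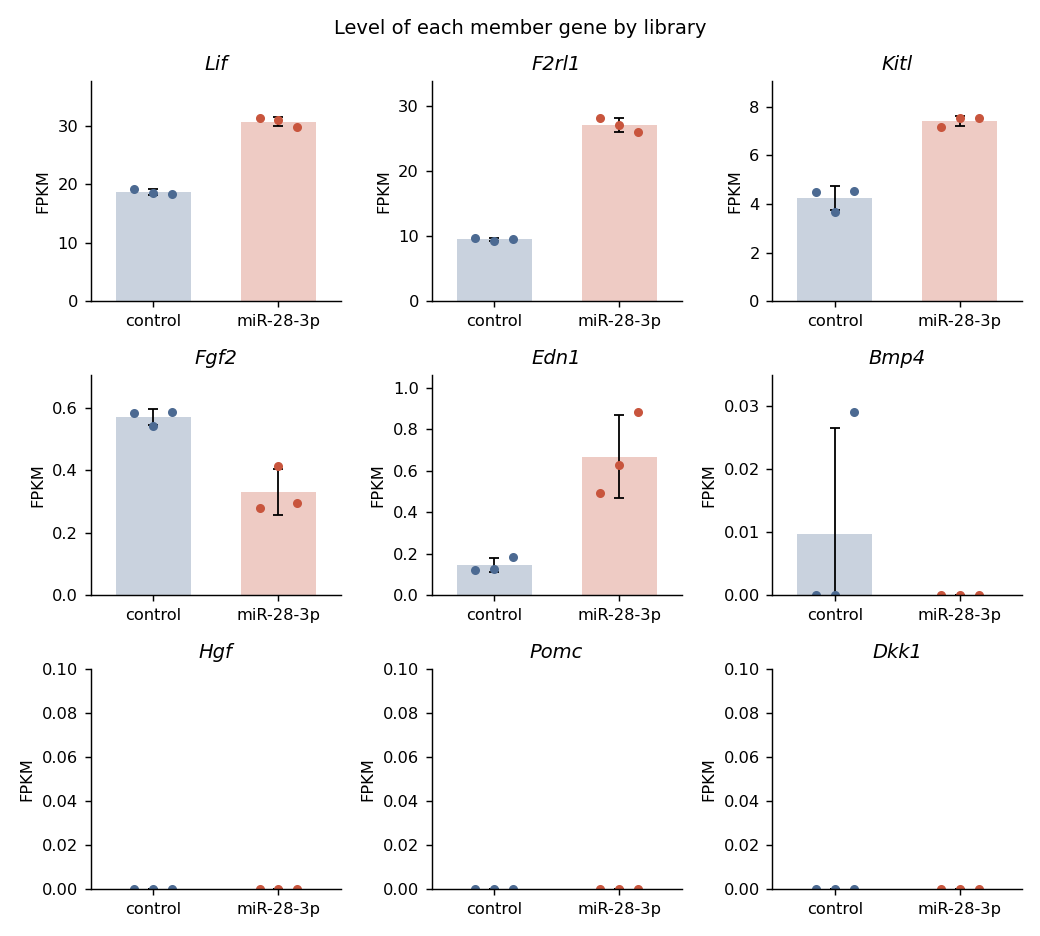
FPKM of each of the 9 members in the 3 control and 3 miR-28-3p libraries, on a separate linear axis per gene; points are libraries, bars are means and error bars are SD (n = 3). Lif, F2rl1, Kitl and Edn1 were higher in all 3 miR-28-3p libraries than in any control, Fgf2 was lower in all 3, and Hgf, Pomc and Dkk1 were at 0 throughout. Of all tested genes 42.2% lay above and 43.8% below the controls without overlap. Edn1 passed the filter on low counts only through the miR-28-3p libraries.

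Lif encodes a secreted cytokine of the interleukin-6 family and was the most abundant member. On the FPKM scale Lif stood at 19.2, 18.5 and 18.3 in the controls and at 31.4, 31.0 and 29.8 with miR-28-3p. Every miR-28-3p library lay above every control. The log2 fold change was 0.81 ± 0.04 (SE from the test, edgeR adjusted p = 7.55e-27, n = 3 against 3). Of all tested genes 19.8% had a larger log2 fold change. Lif (ENSMUSG00000034394) lies on chromosome 11 at 4257557 to 4272514, plus strand, in GRCm38.

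Kitl encodes stem cell factor, the ligand of the receptor tyrosine kinase KIT, and exists as a membrane-bound and a shed form. Its level was 4.49, 3.66 and 4.55 FPKM in the controls and 7.18, 7.55 and 7.52 FPKM with miR-28-3p. Control replicate 2 was the lowest library, and the groups did not overlap. Its log2 fold change was 0.90 ± 0.07 (edgeR adjusted p = 1.26e-17, n = 3 against 3), and 17.4% of tested genes had a larger one. The counts are per gene and do not separate the transcripts of the 2 forms. Kitl (ENSMUSG00000019966) lies on chromosome 10 at 100015630 to 100100416, plus strand.

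Edn1 encodes the precursor of endothelin-1, a peptide that acts on melanocytes through the type B endothelin receptor. The reads counted for Edn1 were 4, 4 and 6 in the controls and 15, 21 and 31 with miR-28-3p. These are levels of 0.122, 0.127 and 0.184 FPKM against 0.490, 0.627 and 0.885 FPKM, and the lowest miR-28-3p library lay above the highest control. The log2 fold change was 2.29 ± 0.47 (edgeR adjusted p = 1.2e-05, n = 3 against 3), with 1.71% of tested genes above it. Edn1 passed the filter on low counts only through the miR-28-3p libraries, where it was high, which limits this p-value, rank and separation. Its FPKM stayed under 1 in all 6 libraries, and its SE was the largest of the 4 members that rose. On the log2(FPKM + 1) scale, which understates the change of low genes, the difference was 0.54. Edn1 (ENSMUSG00000021367) lies on chromosome 13 at 42301476 to 42307990, plus strand. An annotated antisense gene, Gm47118, overlaps its exons, and the sources used here give no strand setting for the counting.

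Fgf2 encodes a growth factor without a classical signal peptide that is a mitogen for melanocytes. It was the single member that fell, from 0.585, 0.541 and 0.589 FPKM in the controls to 0.278, 0.415 and 0.297 FPKM with miR-28-3p. Replicate 2 was the highest of the miR-28-3p libraries and still lay below every control. The log2 fold change was -0.70 ± 0.23 (edgeR adjusted p = 0.00533, n = 3 against 3), and 28.1% of tested genes had a lower one. Against a 1.5-fold minimum change Fgf2 was not called (edgeR adjusted p = 0.239). Fgf2 (ENSMUSG00000037225) lies on chromosome 3 at 37348346 to 37410108, plus strand. The end of the gene, including the TCTAGTA match shown above, lies within Nudt6, a protein-coding gene on the minus strand at 37404910 to 37420211. Without a stated strand setting, reads of the pair cannot be told apart. An annotated gene on the same strand, Gm43439, also overlaps exons of Fgf2 and was not among the counted genes. Whether its reads entered the Fgf2 count was not tested. Nudt6 itself had 108 counts in the controls and 68 with miR-28-3p, with a log2 fold change of -0.60 (edgeR adjusted p = 0.0576), but it was called lower without control replicate 3 (adjusted p = 0.01) or without miR-28-3p replicate 2 (0.0297).

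F2rl1 encodes PAR-2 and had the largest change among the members above 1 FPKM. Its level was 9.72, 9.33 and 9.58 FPKM in the controls and 28.2, 27.1 and 26.1 FPKM with miR-28-3p. The groups stood far apart relative to their spread, with means of 9.54 ± 0.2 and 27.2 ± 1.08 FPKM (SD, n = 3). The log2 fold change was 1.60 ± 0.06 (SE, edgeR adjusted p = 2.77e-33), and 5.28% of tested genes had a larger one. F2rl1 (ENSMUSG00000021678) lies on chromosome 13 at 95511732 to 95525227, minus strand.

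The 2 members known to restrain pigmentation and 2 of the ligands were not measurable at this depth. Hgf, Pomc and Dkk1 had 0 counts in each of the 6 libraries. A count of 0 allows up to 3 counts in a library, which is 0.188 to 0.216 CPM, and counting error alone is covered by this limit. Per length that is at most 0.0292 FPKM for Hgf, 0.159 FPKM for Pomc and 0.0864 FPKM for Dkk1. Bmp4 had 1 count, in control replicate 3, so both groups were under the floor and no fold is given. Whether these 4 genes differed between the groups was not detectable.

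The order of the levels per length changed between the groups. In the controls it ran Lif, F2rl1, Kitl, Fgf2, Edn1, with no overlap between neighbours over the 3 libraries. With miR-28-3p Edn1 stood above Fgf2, again with no overlap. Without scaling by length Fgf2 stayed higher on average with miR-28-3p, at 2.31 ± 0.518 CPM against 1.48 ± 0.445 CPM for Edn1. The ratio of Edn1 to Fgf2 FPKM was 0.252 ± 0.0539 (SD, n = 3) in the controls and 2.08 ± 0.784 with miR-28-3p. Edn1 passed the filter on low counts only through the miR-28-3p libraries and had 4, 4 and 6 counts in the controls. This limits the ratio and the order of Edn1 and Fgf2. F2rl1 drew closer to Lif, the ratio of Lif to F2rl1 FPKM going from 1.96 ± 0.0393 to 1.13 ± 0.0181. Summed over the 9 members, the FPKM was 33.2 ± 1 in the controls and 66.3 ± 1.53 with miR-28-3p. Lif and F2rl1 made up 85.1 ± 1.34% and 87.3 ± 0.867% of these sums. These levels were read after the fold changes were known and are given as a description.

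**Figure D2:**
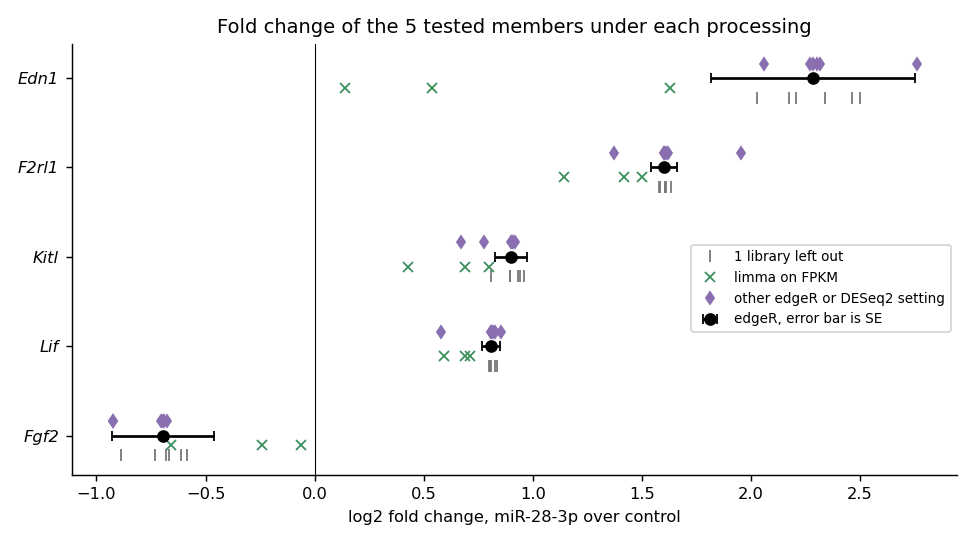
Log2 fold change, miR-28-3p over control, of the 5 tested members by edgeR (black, error bar is SE), by the other edgeR and DESeq2 settings (purple), by limma on log2(FPKM + 0.1, 1 or 5) (green) and with 1 library left out (grey). All values of a member lie on the same side of 0, and the values of Edn1 and Fgf2 shrink most as the FPKM pseudocount grows.

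The authors' deposited table, which names its groups only A and B, gives, for B over A, log2 fold changes of 2.31 for Edn1, 0.91 for Kitl, -0.69 for Fgf2, 1.61 for F2rl1 and 0.82 for Lif. Its adjusted p for Fgf2 is 0.0242, the largest of these 5.

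Promoters are shown for the members that were tested and that the RefSeq table (GRCm38.p6) holds, so that the letters next to genes that rose can be set beside those of the one that fell. Each runs from 250 bases before to 50 bases after the start site, and 8 of the 9 members had an entry, F2rl1 being the exception. Capitals mark matches, on either strand, to the core promoter box TATAAA, the AP-1 motif TGACTCA, the TEAD motif GGAATG, the E-box CACGTG or the GC box GGGCGG, whose matches may overlap each other.
Lif (chr11:4257318-4257617, plus strand): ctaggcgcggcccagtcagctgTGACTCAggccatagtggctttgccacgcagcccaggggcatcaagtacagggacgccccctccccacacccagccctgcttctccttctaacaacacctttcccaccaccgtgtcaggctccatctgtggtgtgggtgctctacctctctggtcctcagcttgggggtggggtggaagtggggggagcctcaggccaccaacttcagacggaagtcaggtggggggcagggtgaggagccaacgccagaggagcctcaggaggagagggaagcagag
Kitl (chr10:100015571-100015870, plus strand): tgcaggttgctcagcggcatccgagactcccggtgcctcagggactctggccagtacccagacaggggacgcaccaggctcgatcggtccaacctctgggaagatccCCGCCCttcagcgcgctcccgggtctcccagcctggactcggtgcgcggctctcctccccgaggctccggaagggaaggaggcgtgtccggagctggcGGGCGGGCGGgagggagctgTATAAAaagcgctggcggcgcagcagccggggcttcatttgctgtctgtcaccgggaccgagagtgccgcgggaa
Edn1 (chr13:42301226-42301525, plus strand): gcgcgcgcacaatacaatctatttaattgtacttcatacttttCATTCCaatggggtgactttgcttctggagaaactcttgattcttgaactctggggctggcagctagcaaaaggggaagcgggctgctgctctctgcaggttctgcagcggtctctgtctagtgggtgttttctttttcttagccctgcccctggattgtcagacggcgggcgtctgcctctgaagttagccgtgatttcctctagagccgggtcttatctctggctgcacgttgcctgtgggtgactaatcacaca
Fgf2 (chr3:37348403-37348702, plus strand): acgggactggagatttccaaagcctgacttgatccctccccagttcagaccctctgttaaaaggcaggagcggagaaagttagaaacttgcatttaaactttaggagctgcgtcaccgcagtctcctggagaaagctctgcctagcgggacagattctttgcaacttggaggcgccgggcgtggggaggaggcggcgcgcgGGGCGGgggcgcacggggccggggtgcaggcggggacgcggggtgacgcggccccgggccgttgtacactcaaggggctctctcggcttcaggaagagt
None of the 5 motifs was in all 3 windows of Lif, Kitl and Edn1, and F2rl1, which also rose, is not among them. Lif held 1 AP-1 match that starts 228 bases before the start site, a motif found in 5.20% of 32851 promoter windows of this length. Kitl held the core promoter box 25 bases before the start site (13.6% of windows) and 3 GC boxes. Edn1 held 1 TEAD match 207 bases before the start site (14.7% of windows). Fgf2 held 1 GC box 49 bases before the start site, and 35.7% of windows hold at least 1. The E-box, found in 7.15% of windows, was in none of these 4 windows. The matches describe these letters and say nothing of which factor was bound.

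The endothelin and KIT systems were then followed from ligand to receptor. Edn2, a second endothelin gene, had 73 counts in the controls and 0 with miR-28-3p, which, with the latter set to 3 counts in total, is at least 23.3-fold lower. Edn3 had 0 counts in all libraries. Ece1, the enzyme that cuts endothelin precursors, stood at 16.7 ± 0.701 FPKM in the controls and 18.4 ± 0.17 FPKM with miR-28-3p (log2 fold change 0.24 ± 0.04, edgeR adjusted p = 1.49e-06), but at 0.01 with upper quartile scaling, not called (adjusted p = 0.87). Ednra, the type A receptor, fell from 84 counts to 7 (log2 fold change -3.45 ± 0.57, edgeR adjusted p = 3.27e-07, and -5.48 without miR-28-3p replicate 1), and Ednrb was at 0 counts throughout. Edn2 and Ednra passed the filter through the controls only, where they were high. Kit, the receptor of stem cell factor, was also at 0 in all 6 libraries. Of the proteases known to release cell-surface ligands, Adam17 rose by 0.42 and Adam9 by 0.73 on the log2 scale, the latter to 46.7 ± 1.13 FPKM. Mmp9, which can release soluble stem cell factor, fell from 71.3 ± 1.94 to 33.2 ± 0.706 FPKM (edgeR adjusted p = 1.83e-36). Adam10 had a log2 fold change of 0.23, called higher, that became -0.0039, not called, with upper quartile scaling.

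Besides Fgf2, 2 fibroblast growth factor genes of the lists were tested, and both were named after their values were seen. Fgf7, which encodes the keratinocyte growth factor, fell from 0.841 ± 0.11 to 0.328 ± 0.119 FPKM, and Fgf1 from 0.289 ± 0.11 to 0.099 ± 0.0555 FPKM. Both reached the filter's count level in all controls but not in all miR-28-3p libraries, and Fgf10 was at 0. Fgfr2, whose epithelial form binds FGF7, rose from 1.29 ± 0.09 to 10.4 ± 0.606 FPKM (log2 fold change 3.11 ± 0.07, edgeR adjusted p = 1.69e-46). Fgfr1, a main receptor of FGF2, fell from 594 counts to 15 (log2 fold change -5.21 ± 0.255, edgeR adjusted p = 1.94e-27), and Fgfr3 rose from 0.482 ± 0.0891 to 0.849 ± 0.164 FPKM. Fgfr1 passed the filter through the controls only. Fgfbp1, a carrier that frees FGF2 from the matrix, rose from 6.15 ± 0.642 to 16.9 ± 0.917 FPKM. The heparan sulphate proteoglycans, which hold FGF2 and HGF at the cell surface, were among the most abundant genes of the lists. Sdc4 and Gpc1 fell, from 148 ± 0.625 to 102 ± 2.36 FPKM and from 89.0 ± 3.99 to 43.3 ± 0.937 FPKM, while Sdc1 was not called (log2 fold change 0.04, edgeR adjusted p = 0.164). Sdc1 was called lower with upper quartile scaling (-0.19, adjusted p = 8.28e-10) and higher without the length trend (0.18, 2.09e-09) or without the filter (0.0479). The fall of Sdc4 was not called once a trend with gene length was removed (edgeR adjusted p = 0.0564).

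Although Hgf was not detected, mRNA of its receptor and of several genes that control its activation was abundant. Hgfac and Hpn of the same list were under the filter, Hpn with 4 counts in the controls and 0 with miR-28-3p. Met, the HGF receptor, rose from 8.65 ± 0.489 to 37.1 ± 0.273 FPKM (log2 fold change 2.19 ± 0.04, edgeR adjusted p = 4.24e-52). St14, which encodes the HGF-activating protease matriptase, fell from 49.8 ± 1.13 to 32.0 ± 0.616 FPKM. Its inhibitors Spint1 and Spint2 fell as well, from 80.0 ± 1.18 to 38.3 ± 1.8 FPKM and from 123 ± 2.5 to 51.3 ± 2.62 FPKM. Plau, the urokinase gene, rose from 53.8 ± 2.82 to 102 ± 1.04 FPKM. For Pomc, the processing enzymes were incomplete. Cpe, which trims peptides after cleavage, was the most abundant gene of the maturation list and fell from 498 ± 9.21 to 206 ± 1.34 FPKM (edgeR adjusted p = 1.21e-49). The prohormone convertase gene Pcsk1 was at 0 in all libraries and Pcsk2 had 4 counts in the controls and 0 with miR-28-3p. The melanocortin receptor gene Mc1r had 4 and 17 counts and was not tested.

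In the LIF receptor pair, Lifr fell from 0.928 ± 0.0593 to 0.447 ± 0.0636 FPKM (log2 fold change -0.96 ± 0.15, edgeR adjusted p = 3.84e-08). Il6st, the shared gp130 subunit, stood at 12.1 ± 0.154 and 13.7 ± 0.221 FPKM. Its log2 fold change of 0.28, called higher, became 0.05 with upper quartile scaling, not called (edgeR adjusted p = 0.202), and -0.18, called lower, after removal of the length trend. Among BMP receptors Bmpr1a rose from 14.3 ± 0.506 to 20.8 ± 0.601 FPKM. The log2 fold change of Bmpr2 was 0.50, called higher, and -0.14, called lower, after removal of the length trend. Acvr1 was not called (log2 fold change -0.09, edgeR adjusted p = 0.217), but was called lower without control replicate 2 (adjusted p = 0.017) and with upper quartile scaling. Lrp6, a Wnt co-receptor bound by DKK1, rose from 5.15 ± 0.113 to 8.60 ± 0.143 FPKM. The related Lrp5 had a log2 fold change of 0.06 (edgeR adjusted p = 0.0388) that turned to -0.17 with upper quartile scaling and -0.35 after removal of the length trend, both called lower. Without control replicate 2 or 3 or miR-28-3p replicate 3, Lrp5 was not called (edgeR adjusted p = 0.109, 0.131 and 0.0632). Kremen1, a second DKK1 receptor, fell from 5.67 ± 0.244 to 4.74 ± 0.246 FPKM (edgeR adjusted p = 0.0146). That call was lost without control replicate 3 (0.0995) or miR-28-3p replicate 2 (0.121). In all, 8 of 13 tested receptor genes were called higher and 4 lower, with a median log2 fold change of 0.28. Across all tested genes 42.1% were higher and 43.9% lower. After removal of the length trend 5 of the receptor genes were higher and 7 lower. Upper quartile scaling gave 6 and 6. Without Fgfr1 and Ednra, which passed through the controls only, 8 of 11 were higher and 2 lower. Of all genes at the filter's count level in all 6 libraries, 44.8% were higher and 41.2% lower.

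**Figure D3:**
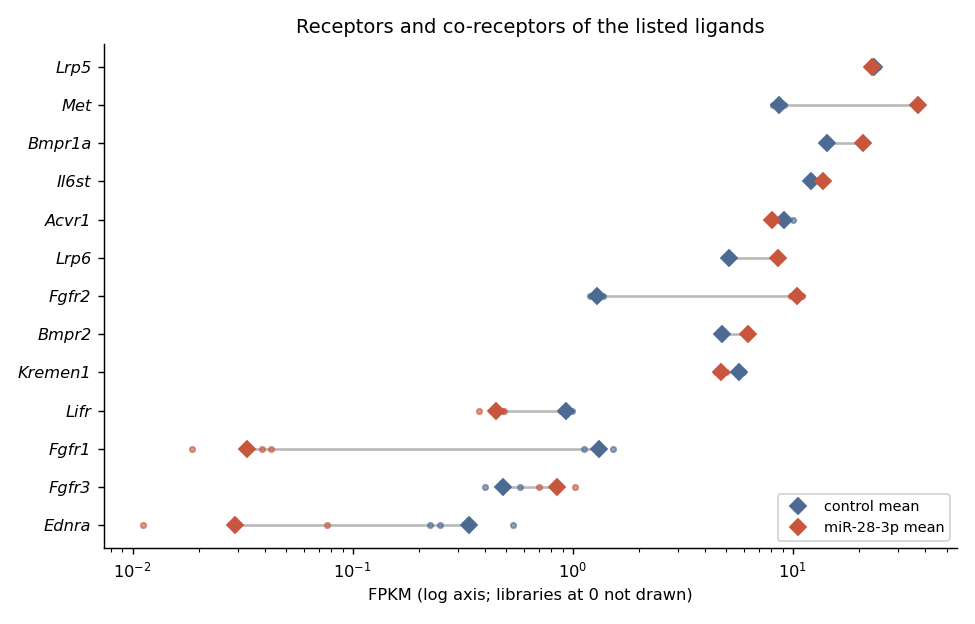
FPKM of the 13 tested receptors and co-receptors on a log axis, small points for libraries and diamonds for group means (n = 3), blue for control and red for miR-28-3p; libraries at 0 are not drawn. Met and Fgfr2 lie to the right with miR-28-3p and Fgfr1 and Ednra to the left, while Lrp5, Il6st and Acvr1 barely part.

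In the list of PAR-2 activators and partners, 1 of 10 tested genes was higher and 8 were lower, with a median log2 fold change of -0.97. Across all tested genes 42.1% were higher and 43.9% lower. The gene that rose, Tmprss11e, encodes a serine protease of epithelial surfaces and went from 35.2 ± 1.68 to 127 ± 0.846 FPKM (log2 fold change 1.95 ± 0.03, edgeR adjusted p = 6.45e-54). Prss8, which encodes prostasin, fell from 17.0 ± 0.361 to 6.35 ± 1.44 FPKM, and Klk8, a kallikrein gene, from 9.69 ± 0.662 to 1.72 ± 0.397 FPKM. Arrb2, which encodes a beta-arrestin that binds the activated receptor, fell from 13.5 ± 1.01 to 6.82 ± 0.198 FPKM. F2r, the gene of the related receptor PAR-1, had a log2 fold change of -0.12, called lower, that became 0.11, called higher, after removal of the length trend. The tissue factor gene F3 had a log2 fold change of -0.27 (edgeR adjusted p = 0.045). That call was lost without control replicate 1 or 3 or miR-28-3p replicate 1 or 2 (edgeR adjusted p from 0.0651 to 0.32), and the value was 0.13 after removal of the length trend. Of the genes called lower, F2rl3 and Tmprss4 passed the filter through the controls only. Among the 7 genes of this list at the filter's count level in all 6 libraries, 1 was higher and 6 lower (median log2 fold change -0.89). Of all genes at that level 44.8% were higher and 41.2% lower. After removal of the length trend 2 genes of the list were higher and 6 lower. The trypsin-like kallikrein gene Klk5 was at 0 counts in all libraries.

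Genes that respond to BMP signals fell in 4 of 5 cases among the ID genes and inhibitory SMADs. Id1 fell from 48.6 ± 4.61 to 18.9 ± 2.12 FPKM, Id2 from 27.1 ± 3.18 to 5.20 ± 0.657 FPKM, and Smad6, which encodes an inhibitory SMAD, from 3.41 ± 0.365 to 1.04 ± 0.248 FPKM. Id3 fell from 36.2 ± 0.6 to 24.9 ± 1.01 FPKM, with a log2 fold change of -0.44 that became 0.11, not called (edgeR adjusted p = 0.0506), after removal of the length trend. Smad7 was not called (log2 fold change 0.03, edgeR adjusted p = 0.585), but was called lower with upper quartile scaling (-0.20, adjusted p = 0.00111). Noggin (Nog), a secreted BMP antagonist, had 4 counts in the controls and 38 with miR-28-3p and was under the filter. Of 6 tested genes of this list 4 were lower and 1, Fstl1, was higher, with a median log2 fold change of -0.86. Across all tested genes 43.9% were lower and 42.1% higher. Fstl1 reached the filter's count level in all miR-28-3p libraries and in 1 control, so it passed through the group where it was high. By DESeq2 or without the filter 3 were called higher, and with 1 library left out 1 to 3. The ID genes respond to other signals as well, and Bmp2 was at 0 counts and Bmp6 at 11 and 2.

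Other secreted factors with reported effects on melanocytes fell more often than they rose, 13 lower and 5 higher of 20 tested. Their median log2 fold change was -0.90, also with Edn2 at its bound. Across all tested genes 43.9% were lower and 42.1% higher. In this list 1 higher (Sema3a) and 4 lower (Edn2, Fgf1, Fgf7, Csf2) passed the filter through 1 group only. The other 15 tested genes had 4 higher and 9 lower with a median of -0.44. Of all genes at the filter's count level in all 6 libraries, 44.8% were higher and 41.2% lower. Wnt7a rose from 10.4 ± 0.275 to 40.1 ± 1.91 FPKM (log2 fold change 2.04 ± 0.05, edgeR adjusted p = 1.68e-42). Il1a, an alarm cytokine of keratinocytes, rose from 35.3 ± 2.72 to 45.0 ± 0.165 FPKM, and Nrg1, a ligand of ERBB receptors, from 0.63 ± 0.025 to 2.11 ± 0.308 FPKM. The growth factor gene Vegfa fell from 22.3 ± 0.629 to 4.33 ± 0.277 FPKM and Pdgfa from 26.9 ± 1.04 to 10.2 ± 0.046 FPKM. Csf2, which encodes GM-CSF, fell from 8.78 ± 0.961 to 0.647 ± 0.0623 FPKM. Tgfb1 and Wnt7b moved less, from 17.0 ± 1.2 to 11.7 ± 0.277 FPKM and from 55.6 ± 1.24 to 44.7 ± 0.551 FPKM, both called lower. Agouti (a), the antagonist of melanocortins at MC1R, was at 0 counts throughout. In the list of maturation and release, 8 of 18 tested genes were higher and 7 lower (median log2 fold change -0.01), and with upper quartile scaling 5 and 10.

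**Figure D4:**
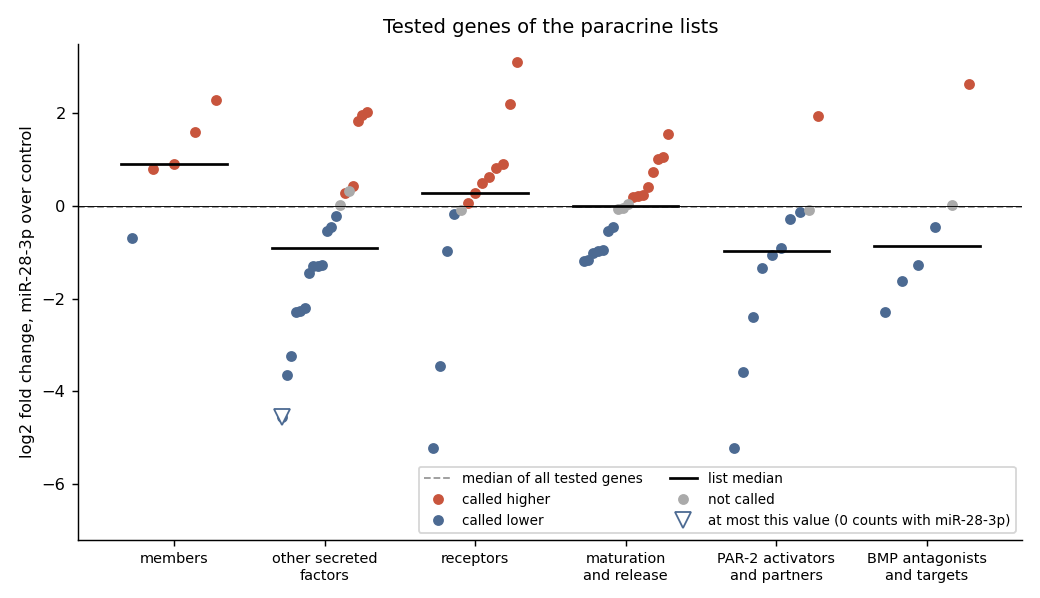
Log2 fold change, miR-28-3p over control, of every tested gene in the members and in 5 lists of related genes, coloured by the edgeR call; black bars are list medians, the dashed line is the median of all tested genes (-0.03), and the open triangle is the bound for Edn2. The members and receptors have medians above 0 (0.90 and 0.28) and the other secreted factors, the PAR-2 list and the BMP list medians below 0 (-0.90, -0.97 and -0.86). These medians include genes that passed the filter through 1 group only. For genes at the filter's count level in all 6 libraries they were, in the same order, 0.85, 0.50, -0.44, -0.89 and -1.28.

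By profile over the 6 libraries, the 2 genes nearest to each member above 5 CPM were sought among 10324 genes, as the smallest root mean square difference of centred log2 CPM. For Lif these were Mlkl (0.0163) and Gsk3b (0.0171), for F2rl1 Huwe1 (0.0266) and Ranbp2 (0.0284), and for Kitl Ncoa2 (0.0394) and Armcx5 (0.0413). With 2 groups this likeness reflects mainly a log2 fold change of equal size.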

How the data were processed

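Messenger RNA of 6 libraries, 3 per group, was compared. The authors deposited read counts per gene, raw per the file headers, and FPKM, scaled per the file headers by gene length and library. Their table of comparisons holds, per the file headers, log2 fold changes and p-values. Of the raw reads, 91.5 to 93.5 percent stayed after trimming, per the authors' deposited statistics. HISAT2, HTSeq, DESeq and mm9 stand in the submitters' processing notes, but 21617 of 21936 genes, the 9 members among them, have the coordinates of GENCODE release M21 (GRCm38), which were used.

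Counts were tested with edgeR 4.0.16 in R 4.3.3 (filterByExpr with a minimum count of 10, TMM, robust quasi-likelihood F test, Benjamini-Hochberg over all 11809 tested genes). An SE is the log2 fold change divided by the root of F. The fit was tested on simulated data with 200 changed genes. Alternatives used DESeq2 1.42.0, limma 3.58.1 on log2(FPKM + 0.1, 1 or 5), upper quartile scaling, no filter, a 1.5-fold minimum, local regression on gene length, a replicate block, and each library left out. Replicates of a group differed by more than sampling noise. The members and lists were chosen with earlier results of these data known. All members are named, up to 6 tested genes of each list by mean FPKM, in the receptor and maturation lists also those of members with at least 1 FPKM (Lifr, Il6st, Adam9, Adam10, Adam17, Mmp9), defining markers, and the 2 genes most like a member. The recount by group of genes at the filter's count level was added after seeing the data. Ednra, Fgfr1, Fgfr2, Fgfr3, Bmpr2, Kremen1, Ece1, St14, Spint1, Fgfbp1, Hspg2, Edn2, Fgf1, Fgf7, Csf2, Nrg1, Nudt6, Sema3a, F2rl3, Tmprss4, Hgfac and genes at or near 0 were named after their values were seen.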

Additional observations from a re-analysis of the deposited data

How the results depend on the processing

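Of 75 member results under 15 alternatives, 74 kept their direction and side of the threshold. The exception was Fgf2 against a 1.5-fold minimum. The log2 difference ranged from 0.14 to 2.76 for Edn1 and from -0.92 to -0.06 for Fgf2, smallest with the largest FPKM pseudocount. Among 1125 results of 75 named genes, 21 changed sign; the cause was not tested. Against the 1.5-fold minimum 2762 genes were higher and 3185 lower, members lower were 0, other secreted factors higher 3, receptors higher 4, maturation genes higher 4, melanocyte markers lower 1, and keratinocyte markers 1 higher and 2 lower. Without the length trend, receptors were 5 higher and 7 lower, PAR-2 genes higher 2 and melanocyte markers lower 1. With upper quartile scaling, which moved the median of all genes from -0.03 to -0.26, maturation genes higher were 5. DESeq2 called 3 BMP genes and 2 melanocyte markers higher, and the fit without a filter 3 and 3. With 1 library left out, BMP genes higher were 1 to 3 and melanocyte markers higher 0 to 2.

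Log2 differences that changed sign with upper quartile scaling were Lrp5 -0.1655, Sdc1 -0.1925, Smad7 -0.197, Adam10 -0.0039 and Hspg2 -0.0413. By limma at pseudocounts of 1, 0.1 and 5 they were -0.0269, -0.0279 and -0.0232 for Lrp5, -0.0548, -0.0553 and -0.0523 for Sdc1, and -0.0549, -0.0592 and -0.0415 for Smad7. Without the length trend they were Lrp5 -0.3459, Il6st -0.1814, F2r 0.112, F3 0.1289, Id3 0.1145, Bmpr2 -0.1407 and Hspg2 -0.38. With replicate number as a block, 4955 genes were higher and 5161 lower, and members stayed at 4 and 1. Same-numbered libraries did not deviate together (correlations of -0.00479, -0.00307 and -0.0309), so the numbers were not taken as pairs.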
